A study of Drosophila melanogaster with 2 samples.

Results

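The genes described here are the 290 transfer RNA (tRNA) genes on the nuclear chromosomes of Drosophila melanogaster, taken by their biotype from the Ensembl annotation of the genome build dm6. They are 290 of 312 annotated tRNA genes, the others being mitochondrial, and 290 of 18358 annotated genes in all. Chromatin immunoprecipitation with sequencing (ChIP-seq) mapped the protein kay in whole adult males of a transgenic line, of unknown age, that stably expresses kay with GFP fused to its C-terminal end, and anti-GFP antibody was used. The 2 libraries, numbered 1 and 3, are biological replicates of 1 group, and the fusion gene is shared by both, so no contrast between conditions exists. Whole animals mix all tissues, so a peak does not say in which cells kay was bound, and the labels do not say whether the flies kept an untagged kay gene. No control library was analysed here.

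A tRNA gene is short and is transcribed by RNA polymerase III from a promoter inside the gene, made of an A box and a B box that the factor TFIIIC binds, after which TFIIIB is placed just upstream and recruits the polymerase. Many tRNA genes exist as identical copies, often in clusters or inside introns of protein-coding genes. kay is the fly Fos protein, which pairs with Jra, the fly Jun, as AP-1 and binds the site TGACTCA or, read on the other strand, TGAGTCA. AP-1 is best known as a regulator of genes transcribed by RNA polymerase II.

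The 290 genes formed 174 clusters when genes at most 1000 bp apart were joined, and 105 of these held a single gene. Their median length was 73 bp, and 16 genes had an annotated intron. Only 95 distinct sequences were found among them, and 43 of these sequences existed in 2 or more copies that together made up 238 genes. A protein-coding transcription start, called a coding start here, lay within 500 bp of 33 tRNA genes and not of the other 257.

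4 tRNA genes that the results below return to are shown, read 5′ to 3′ on the strand of the gene, with the B box in capitals, found as GTTCGANNC or GTTCAANNC. The Gln gene stands at one of the highest kay peaks, and the Tyr genes are neighbours with unequal peaks. The Met gene has a summit within 500 bp upstream in both replicates, with no cluster around it. Sequences are from the dm6 genome.
tRNA:Gln-TTG-1-3 (chr3R:26947512-26947583, minus strand): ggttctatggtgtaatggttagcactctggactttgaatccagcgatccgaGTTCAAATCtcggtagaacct
tRNA:Tyr-GTA-1-8 (chr3R:8669081-8669174, minus strand): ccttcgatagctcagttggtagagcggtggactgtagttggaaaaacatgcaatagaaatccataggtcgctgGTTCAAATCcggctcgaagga
tRNA:Tyr-GTA-1-7 (chr3R:8668612-8668705, minus strand): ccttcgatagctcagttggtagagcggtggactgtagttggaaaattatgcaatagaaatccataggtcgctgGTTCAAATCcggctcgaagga
tRNA:Met-CAT-2-1 (chr3L:3121942-3122014, minus strand): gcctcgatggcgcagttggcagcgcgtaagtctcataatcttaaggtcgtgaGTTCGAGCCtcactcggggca
The B box letters were found in 271 of the 290 tRNA genes (93.4%). The 2 Tyr genes differ at 2 bases, none of them outside the intron of 21 bases.

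kay summits were counted in 4 deposited peak lists, of which the list of replicate 1 had 2024 nuclear summits, that of replicate 3 had 13804, the list of both replicates pooled had 4317, and the list the authors named optimal after their reproducibility step had 165. The replicate and pooled lists include many weak peaks. In replicate 1, 149 nuclear peaks had an authors' q-value of at most 0.05. In replicate 3, 447 did, and in the pooled list 294. The authors named the pooled list peaks and background, as input for their reproducibility step, so not all its entries are called peaks. The pooled and optimal lists were made from both libraries and so are not independent of the replicate lists. Peak signal is the authors' own value for each peak, whose scale differs between lists, and ranks are among nuclear peaks of 1 list. The sources used here do not give the read depth.

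kay summits lay within 500 bp of nuclear tRNA genes more often than randomly placed summits did, in each replicate's list and in both joint lists. In replicate 1, 21 of 2024 summits (1.04%) lay there, against a mean of 0.170% in placements on the same chromosome, a ratio of 6.09. In replicate 3 the count was 72 of 13804 (0.522%), against 0.174% in placements, a ratio of 3.01. In the pooled list it was 39 of 4317 (0.903%), against 0.170%, a ratio of 5.32, and in the optimal list 3 of 165 (1.82%), against 0.185%, a ratio of 9.82. Two-sided permutation tests with 10000 placements gave an adjusted p of 0.0004 for each of the first 3 lists, the smallest unadjusted p these placements can give being 0.0002, and 0.0098 for the optimal list, with Benjamini-Hochberg adjustment over 12 tests. These tests take each summit as an independent event, and their p-values hold no measure of the spread between animals. The optimal result rests on 3 summits: with the 165 highest nuclear peaks of replicate 3 in its place, 2 lay at tRNA genes, a ratio of 6.45 (adjusted p = 0.108 in the same permutation test).

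**Figure D1:**
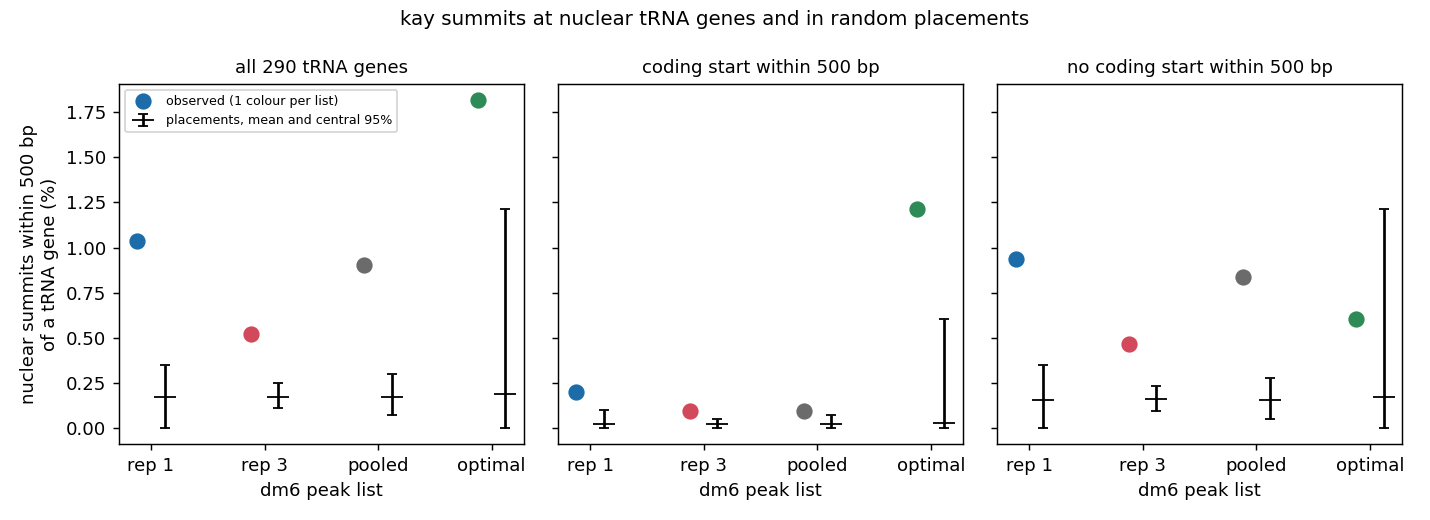
Share of nuclear summits within 500 bp of a tRNA gene (percent, vertical axis) in the 4 dm6 peak lists (horizontal axis), for all 290 genes, those with a coding start within 500 bp and those without. Coloured points are the observed shares, and black marks with bars are the mean and central 95% of 10000 placements; the observed share lies above the bar in every list except the optimal list for genes without a coding start.

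Counted by gene, 31 of the 290 tRNA genes (10.7%, 95% Wilson interval 7.63% to 14.8%) had a replicate 1 summit within 500 bp, against 1.58% in the placements. Of all nuclear annotated genes, 4.55% had a replicate 1 summit within 500 bp of a transcription start, and 8.42% within 500 bp of any part of the gene. In replicate 3, 93 tRNA genes (32.1%) had a summit, against 10.4% in the placements. That share is close to the 31.8% of all nuclear genes with a replicate 3 summit within 500 bp of any part of the gene, but protein-coding genes, most of them, have a median length of 2166 bp, and by the start alone the figures were 90 tRNA genes (31.0%) against 19.5% of all genes. The pooled list reached 56 tRNA genes (19.3%), against 3.30% in the placements and 7.85% of all genes by their starts (13.8% by any part of the gene). The optimal list reached 5 tRNA genes (1.72%), against 0.140% in the placements and 0.595% of all genes by their starts (1.07% by any part of the gene). The adjusted p over the 4 lists was 0.000267 in the first 3 lists and 0.0044 in the optimal list, by the same permutation test.

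Among the 1200 other nuclear genes of at most 200 bp, 2.42% had a replicate 1 summit, 14.5% a replicate 3 summit, 4.67% a pooled summit and 0 an optimal summit, all below the tRNA shares. The difference from these short genes was not tested. By their starts, 4.98% of 13945 protein-coding genes had a summit in replicate 1, 21.0% in replicate 3 and 8.40% in the pooled list. The 269 small nucleolar RNA genes had 1.86%, 18.6% and 7.06% in the same lists. None of the 99 nuclear ribosomal RNA genes had a summit in any of the 4 lists. How uniquely reads map to repeated genes was not tested.

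The ratio was greatest close to the tRNA genes. Within 500 bp, summits were 5.94 times as dense per Mb as over the whole nuclear genome in replicate 1, 2.99 times in replicate 3 and 5.17 times in the pooled list. Between 500 and 1000 bp the density was 2.01, 2.35 and 2.07 times that of the genome in the same order. Between 1000 and 2000 bp the lists differed, with 0.863 times in replicate 1, 1.49 times in replicate 3 and 1.72 times in the pooled list. Between 2000 and 5000 bp it was 1.18, 1.32 and 1.11 times, and between 5000 and 10000 bp 1.58, 1.52 and 1.66 times. From 10000 to 20000 bp it was 1.82, 1.51 and 1.64 times, so the wider surroundings were also denser in summits than the genome. The density therefore fell more steeply from the first bin to the next in replicate 1 and in the pooled list than in replicate 3, and it did not fall steadily beyond 1000 bp in any of these lists.

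**Figure D2:**
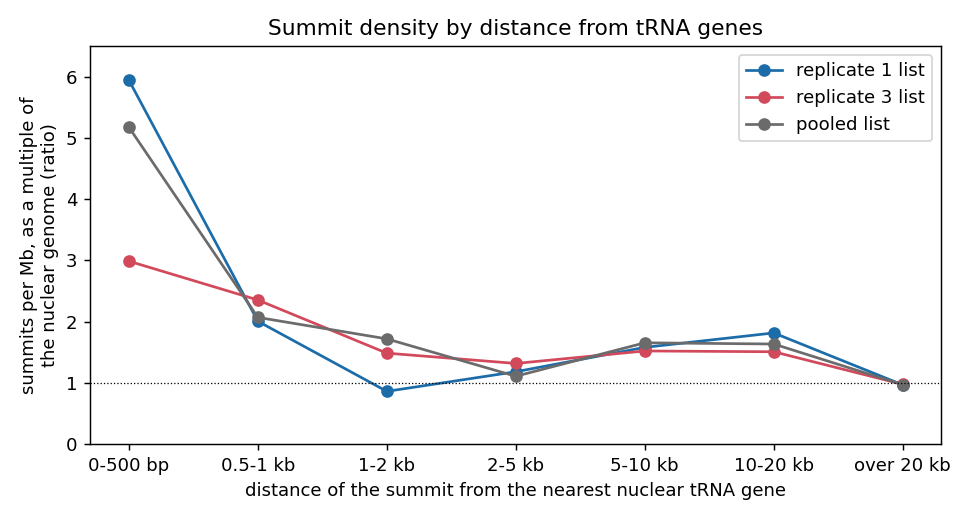
Summit density (summits per Mb as a multiple of the nuclear genome, vertical axis) by distance from the nearest nuclear tRNA gene (horizontal axis, in bins), 1 line per list. Replicate 1 and the pooled list stand at 5.94 and 5.17 in the first bin and replicate 3 at 2.99, and all 3 lie between 0.97 and 0.98 beyond 20000 bp.

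Summits fell on both sides of the tRNA genes. Of the 21 summits in replicate 1, 10 lay upstream of the nearest tRNA gene, 2 within it and 9 downstream, with a median distance of 193 bp. Of the 72 in replicate 3, 31 lay upstream, 9 within and 32 downstream, with a median distance of 115.5 bp. The 39 pooled summits were 14 upstream, 5 within and 20 downstream, with a median of 100 bp. The upstream and downstream counts were thus of similar size. The side is poorly resolved. At genes with a summit in both replicates, the highest summits lay a median of 99 bp apart, more than the median gene length of 73 bp. In clusters the side also depends on which tRNA gene is nearest.

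**Figure D3:**
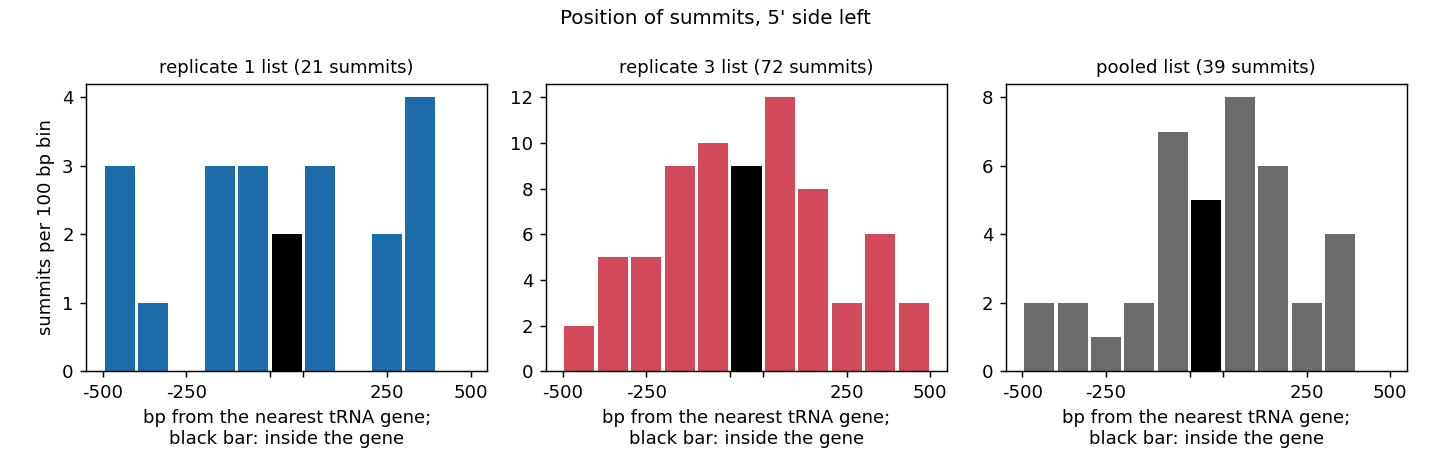
Number of summits per 100 bp bin (vertical axis) by position relative to the nearest tRNA gene (horizontal axis, in bp, 5′ side left), in the lists of replicate 1, replicate 3 and both pooled. The black bar counts summits inside the gene, 2, 9 and 5 in that order; summits lie on both sides in each list.

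The highest kay peak at a tRNA gene lay between the divergent pair tRNA:Ser-TGA-1-1 (chr2R:23072019-23072100, minus strand) and tRNA:Ser-TGA-2-1 (chr2R:23072581-23072662, plus strand), both of which decode serine. Its signal was 187.3 in replicate 1 (rank 3) and 215.5 in replicate 3 (rank 6), and 403.5 in the pooled list (rank 2). The peak was high in both replicates, and 1 summit served both genes. It lay 83 bp upstream of tRNA:Ser-TGA-2-1 in replicate 1 and 73 bp upstream in replicate 3, and 398 bp and 408 bp upstream of tRNA:Ser-TGA-1-1. The nearest coding start was 2113 bp from the summit in replicate 1 and 2123 bp in replicate 3. Of the tRNA peaks in the optimal list, this was the only one with no coding start within 500 bp of the gene.

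The next peak lay at the glutamine genes tRNA:Gln-TTG-1-2 (chr3R:26947263-26947334) and tRNA:Gln-TTG-1-3, printed above. Its signal was 94.0 in replicate 1 (rank 39), 120.1 in replicate 3 (rank 31) and 206.9 in the pooled list (rank 34). The summit fell between the genes, 65 bp downstream of tRNA:Gln-TTG-1-3 in replicate 1 and 21 bp downstream in replicate 3. A start of the protein-coding gene Spag1 lies 247 bp from tRNA:Gln-TTG-1-3 and was 383 bp from the replicate 1 summit, so the summit was nearer to the tRNA genes. Another gene of the same sequence, tRNA:Gln-TTG-1-1 on 3L, had no summit within 500 bp in any of the 4 lists.

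The third peak of the optimal list was at tRNA:Tyr-GTA-1-8, which lies with tRNA:Tyr-GTA-1-6 and tRNA:Tyr-GTA-1-7 in introns of CG8036 and p. Its signal was 79.6 in replicate 1 (rank 55), 61.3 in replicate 3 (rank 282) and 138.3 in the pooled list (rank 99). The summit lay 131 bp upstream of the gene in replicate 1 and 145 bp upstream in replicate 3, and 313 bp and 299 bp from a start of CG8036. The neighbour tRNA:Tyr-GTA-1-7, nearly the same in sequence as printed above, had a signal of 21.6 in replicate 1 (rank 1619), 25.3 in replicate 3 (rank 3337) and no pooled summit. Of the 10 Tyr genes, 9 share the mature sequence of tRNA:Tyr-GTA-1-8, while all 10 introns differ and run from 20 to 113 bases. Among them 3 genes had a summit in replicate 1, 5 in replicate 3 and 4 in the pooled list.

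These 3 loci were the only tRNA loci with an authors' q-value of at most 0.05 in replicate 1. At that limit, 3 of 149 replicate 1 summits lay at tRNA genes (ratio 10.7 to placements, adjusted p = 0.0113 in the permutation test), as did 6 of 447 replicate 3 summits (ratio 7.16, adjusted p = 0.0048). So did 5 of 294 pooled summits (ratio 9.26, adjusted p = 0.0048 in the same permutation test). These pooled summits reached 9 tRNA genes (3.10%), against 0.248% in the placements. The whole, longer pooled list reached 56. The share of all annotated genes at that limit is not given here.

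The highest remaining tRNA peaks were lower and mostly on 2R. In an intron of hts, the gene of the fly adducin, 1 summit lay 1 bp upstream of the valine gene tRNA:Val-AAC-2-1 (chr2R:19414845-19414917) in replicate 1 and 19 bp upstream in replicate 3, with signals of 35.4 and 64.0, and with 101.9 in the pooled list. It also lay within 500 bp of tRNA:Ser-CGA-1-4 and tRNA:Val-AAC-2-2. The leucine gene tRNA:Leu-AAG-1-1, in an intron of pcs, had 40.2 in replicate 1 (rank 313), 53.4 in replicate 3 (rank 429) and 94.9 in the pooled list, with the summit 320 to 382 bp downstream. The arginine genes tRNA:Arg-CCT-1-2 and tRNA:Arg-CCT-1-3 shared a summit with 40.2 in replicate 1, 44.7 in replicate 3 and 87.5 in the pooled list.

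The alanine gene tRNA:Ala-CGC-1-1, within gol, had 34.6 in replicate 1, 41.9 in replicate 3 and 77.8 in the pooled list. The glutamate gene tRNA:Glu-TTC-1-5, whose nearest coding start is 13384 bp away, had 26.1 in replicate 1, 53.4 in replicate 3 and 73.0 in the pooled list. The elongator methionine gene tRNA:Met-CAT-2-1, within promL, had 33.9 in replicate 1, 36.6 in replicate 3 and 70.9 in the pooled list. These summits lay 428 bp, 214 bp and 425 bp upstream of the gene in that order. Another replicate 3 summit, with 33.7, lay 416 bp upstream, closer to the replicate 1 position. All of these genes had summits in both replicates, although their signals lay well below that of the Ser-TGA pair. Some others of the 20 highest in the pooled list came from 1 replicate: tRNA:Arg-TCG-2-4, in an exon of pyd, had 42.4 in replicate 3 and no summit in replicate 1, and tRNA:Arg-ACG-1-4 had 37.1 in replicate 1 and no summit in replicate 3.

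With the whole lists, the replicates shared most of the tRNA genes of the shorter list, but at equal list length they shared fewer. A summit in both lists was found at 23 genes, which is 74.2% of the 31 in replicate 1 and 24.7% of the 93 in replicate 3. Another 8 genes had a summit only in the list of replicate 1, 70 only in that of replicate 3, and 189 in neither. Every one of the 56 genes of the pooled list had a summit in at least 1 replicate list. With the 2024 highest nuclear peaks of replicate 3 in place of its whole list, 22 tRNA genes had a summit, of which 15 also had one in replicate 1. That is 48.4% of the replicate 1 genes. The overlap of the replicates over all annotated genes is not given here. At the 23 shared genes the median distance between the highest summits of the replicates was 99 bp, and it was at most 50 bp at 10 of them.

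**Figure D4:**
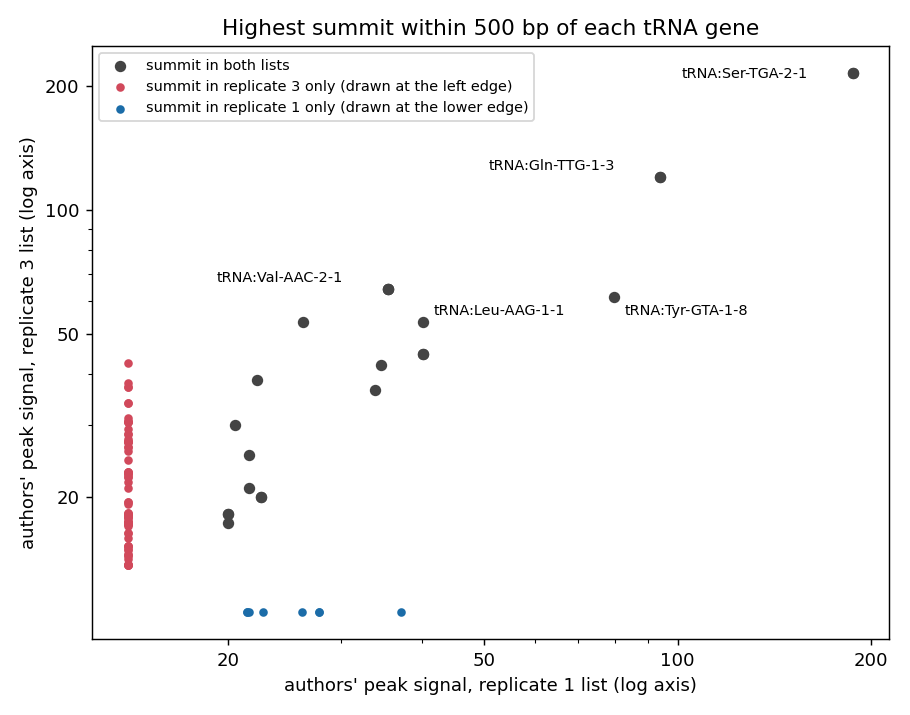
The authors' peak signal of the highest summit within 500 bp of each tRNA gene in replicate 1 (horizontal, log axis) and replicate 3 (vertical, log axis), 1 point per gene, some points coinciding where genes share a summit. The Ser-TGA pair is at the upper right with 187.3 and 215.5, and genes with a summit in 1 list only are drawn along the edges.

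An excess was also found at tRNA genes without a coding start within 500 bp. At the 257 tRNA genes with no coding start within 500 bp, 19 summits were found in replicate 1 (ratio 6.08 to placements), 64 in replicate 3 (2.94) and 36 in the pooled list (5.41), each with an adjusted p of 0.0004 in the permutation test. The optimal list had 1 summit there, a ratio of 3.59 that did not pass (adjusted p = 0.489 in the permutation test). At the 33 tRNA genes with a coding start, 4 summits were found in replicate 1 (ratio 8.30, adjusted p = 0.0037), 13 in replicate 3 (3.93, adjusted p = 0.0010), 4 in the pooled list (3.98, adjusted p = 0.0404), and 2 in the optimal list (1.21% of its summits, against 0.0242% in placements, adjusted p = 0.0024), by the same permutation test. A summit within 500 bp of genes of both kinds counts in both sets. Placements that kept each summit's class, near a coding start or not, ended the call for the genes with a coding start in replicate 1 (ratio 3.66, adjusted p = 0.0674 in the permutation test) and in the pooled list (1.89, adjusted p = 0.359). In the other lists the ratio was lower than with free placements and still passed, at 2.25 in replicate 3 (adjusted p = 0.0180) and 15.9 in the optimal list (adjusted p = 0.0203), by the same permutation test. For the genes without one, such placements gave 7.03 in replicate 1, 3.22 in replicate 3 and 6.10 in the pooled list. At tRNA genes with no coding start within 1000 bp, the ratios to free placements were 6.73, 2.98 and 6.18 in the same lists.

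Few summits at tRNA genes had a coding start closer than the tRNA gene. A coding start lay within 500 bp of 3 of the 21 summits in replicate 1, 8 of the 72 in replicate 3 and 3 of the 39 in the pooled list, and it was nearer than the tRNA gene for 1, 1 and 0 of them. Counted by gene, 26 of 257 genes without a coding start had a summit in replicate 1 (10.1%), 79 in replicate 3 (30.7%) and 51 in the pooled list (19.8%). Of the 33 with a coding start, 5 (15.2%), 14 (42.4%) and 5 (15.2%) had one in the same lists.

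By amino acid, Tyr, Glu and Met genes had the highest shares in the pooled list, and the groups are small. A pooled summit lay at 4 of 10 Tyr genes (95% Wilson interval 16.8% to 68.7%), 7 of 19 Glu genes (19.1% to 59.0%), 2 of 6 elongator Met genes and 7 of 22 Leu genes. In replicate 3, Gln led with 8 of 12 genes and Met with 4 of 6. At the other end, none of the 20 Gly genes had a summit in replicate 1 or in the pooled list (upper limit 16.1%), with 2 in replicate 3. The 17 Thr genes had none in replicate 1 or in the pooled list and 5 in replicate 3, and the 6 initiator Met genes had none, none and 2 in the same order. None of the 5 His genes, nor the selenocysteine gene, had a summit in any list. Most of these intervals overlap, and neighbouring genes share summits, so no order among amino acids was tested.

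**Figure D5:**
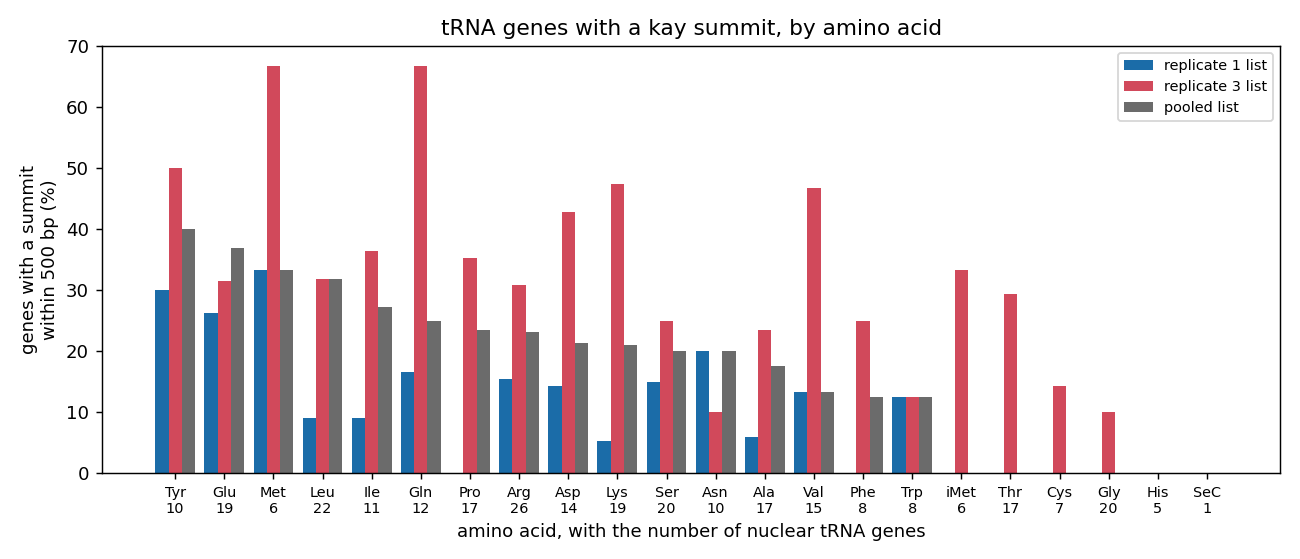
Share of the nuclear tRNA genes of each amino acid with a summit within 500 bp (percent, vertical axis), with the number of genes below each label, in the lists of replicate 1, replicate 3 and both pooled. The order is by the pooled share, led by Tyr with 4 of 10 genes, and His and the selenocysteine gene (SeC) have no bar.

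Identical copies seldom all had a summit. Between 10.7% and 32.1% of all tRNA genes had one in these lists, so this could be foreseen from the overall shares. No expected count was computed. Of the 43 sequences with 2 or more copies, 15 had a replicate 1 summit at some copies, 28 at no copy and 0 at all copies. In replicate 3 the counts were 32 at some, 10 at none and 1 at all, and in the pooled list 23, 20 and 0. Of the 13 genes with the sequence of tRNA:Lys-CTT-1-1, 1 had a summit in replicate 1, 7 in replicate 3 and 3 in the pooled list. The 52 genes of unique sequence had a summit in 8 cases in replicate 1 (15.4%), 22 in replicate 3 (42.3%) and 15 in the pooled list (28.8%). The 103 genes with 2 to 5 copies had one in 11 cases (10.7%), 33 (32.0%) and 14 (13.6%), and the 135 genes with 6 or more copies in 12 (8.89%), 38 (28.1%) and 27 (20%). The share thus did not fall steadily with copy number in the pooled list. Reads within identical genes cannot be placed by their sequence alone, and the sources used here do not state how the authors' alignment treated them, so its part in these shares was not tested.

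Cluster size went with the share in no steady way. Of the 105 tRNA genes alone in their cluster, 7 had a summit in replicate 1 (6.67%), 25 in replicate 3 (23.8%) and 14 in the pooled list (13.3%). Of the 134 in clusters of 2 or 3, 19 (14.2%), 55 (41.0%) and 31 (23.1%) had one, and all 5 genes of the optimal list were in such clusters. Of the 51 in clusters of 4 or more, 5 (9.80%), 13 (25.5%) and 11 (21.6%) had one. A gene in a cluster can be reached by a neighbour's summit. With each of the 174 clusters counted once, 19 had a summit in replicate 1 (ratio 5.57 to placements), 59 in replicate 3 (2.66), 35 in the pooled list (4.89) and 3 in the optimal list (9.84). The largest clusters held 7 genes, and the one on 2R with tRNA:Ile-AAT-1-3 had pooled summits at 4 of its 7 genes, with signals up to 41.6.

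Genes inside and outside host genes were compared by count, with no test. Of the 127 tRNA genes in an intron of a protein-coding gene, 14 had a summit in replicate 1, 43 in replicate 3 and 29 in the pooled list (22.8%). Of the 155 with no host, 16, 45 and 23 (14.8%) had one. The 7 in exons of protein-coding genes had 1, 5 and 4. By chromosome, 98 of the 290 genes were on 2R, 79 on 3R, 48 on 3L, 41 on 2L and 24 on X. On X, none of 24 tRNA genes had a summit in replicate 1 or in the pooled list (upper Wilson limit 13.8%) and 4 did in replicate 3, while on 2R 16 had one in replicate 1, 34 in replicate 3 and 25 in the pooled list. The flies were males, with a single X. The share of all genes on X is not given here, so whether the X counts are particular to tRNA genes was not tested. The 16 genes with an intron, 10 of them Tyr, 4 Leu and 2 Ile, had a summit in 4, 8 and 7 cases, against 27, 85 and 49 of the 274 without.

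In each list, most tRNA summits and most other nuclear summits lacked an exact AP-1 site. TGACTCA or TGAGTCA lay within 100 bp of 4 of the 21 tRNA summits in replicate 1 (19.0%, 95% Wilson interval 7.67% to 40%), against 7.24% of the other nuclear summits. In replicate 3 it was 4 of 72 (5.56%), against 3.48% of the others, and in the pooled list 3 of 39 (7.69%), against 5.56%. None of the 3 tRNA summits of the optimal list had a site, against 23.5% of the other 162, and 3 summits are too few to tell these shares apart. Windows of the same length hold such a site at 1.60% of all nuclear positions. The 3 tRNA loci of the optimal list were thus without the site: the nearest one was 1567 bp from the pooled summit at tRNA:Ser-TGA-2-1, 5275 bp from that at tRNA:Gln-TTG-1-3 and 7195 bp from that at tRNA:Tyr-GTA-1-8.

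The sites that did lie near tRNA summits were at tRNA:Leu-AAG-1-1 and tRNA:Arg-CCT-1-3 in both replicates and at tRNA:Glu-CTC-3-8 and tRNA:Ile-TAT-1-1 in replicate 1, and at tRNA:Arg-TCT-1-1 and tRNA:Ala-AGC-2-1 in replicate 3. For the 3 of them that are on 3L, the site is shown in capitals with 10 bases on each side, plus strand of dm6, so that the form of the site can be compared.
Near tRNA:Ile-TAT-1-1 (chr3L:769037-769063): ttacgaaagtTGACTCAtttggcacaa
Near tRNA:Glu-CTC-3-8 (chr3L:1401622-1401648): atttttctatTGACTCAcaaatatgta
Near tRNA:Ala-AGC-2-1 (chr3L:8028274-8028300): cttgtgtcctTGACTCAagtgctggga
The site near tRNA:Glu-CTC-3-8 was 25 bp from the replicate 1 summit, with a signal of 22.5 (rank 1444), and 17 bp from the pooled summit, with a signal of 47.4. The site near tRNA:Ile-TAT-1-1 was 56 bp from a replicate 1 summit with a signal of 26.0, and the gene had no replicate 3 summit. The site near tRNA:Ala-AGC-2-1 was 45 bp from a replicate 3 summit with a signal of 14.8 (rank 11532), near the lower end of that list. In the genes and their 500 bp flanks, a site lay at 28 of the 290 tRNA genes, and at 6 of the 56 with a pooled summit (10.7%), against 22 of the 234 without (9.40%).

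The B box, which nearly all of these tRNA genes contain, lay near 28.2% to 34.7% of the tRNA summits of the 3 longer lists. Its letters were within 100 bp of 6 of 21 tRNA summits in replicate 1 (28.6%), 25 of 72 in replicate 3 (34.7%) and 11 of 39 in the pooled list (28.2%). Away from tRNA genes they were at 2.85%, 3.30% and 2.92% of the other nuclear summits in the same lists, against 3.36% of all nuclear positions, on either strand in windows of the same length. The tRNA summits were chosen by nearness to genes that nearly all contain the B box, so a higher share follows from that choice. The share at random positions within 500 bp of tRNA genes was not computed, so these shares do not show a link of summits to the B box.

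Other genes of the tRNA pathway were counted by summits within 500 bp of their starts. Of 26 genes of the RNA polymerase III machinery, 1 had a summit within 500 bp of a start in replicate 1, 4 in replicate 3, 1 in the pooled list and 1 in the optimal list. That gene was Brf, on 3R, which encodes a subunit of TFIIIB, with a signal of 41.9 in replicate 1 (rank 271), 92.7 in replicate 3 (rank 82) and 134.9 in the pooled list (rank 102). In the optimal list it made up 3.85% of the 26 genes, beside 0.667% of all protein-coding genes by their starts. La, whose protein binds the ends of new polymerase III transcripts, had 50.3 in replicate 3 and no summit in the other lists.

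Of 20 aminoacyl-tRNA synthetase genes, which charge tRNAs with their amino acids, 1 had a summit in replicate 1, 7 in replicate 3, 2 in the pooled list and 0 in the optimal list. AspRS had 45.1 in replicate 1, 49.6 in replicate 3 and 98.1 in the pooled list, and GlyRS had 27.5 in replicate 3 and 39.7 in the pooled list. SerRS had 77.0 in replicate 3 (rank 141) and no summit in the other lists. Of 23 matched genes for tRNA processing and modification, 0 had a summit in replicate 1, 5 in replicate 3, 2 in the pooled list and 0 in the optimal list. The pooled ones were RNaseZ, which trims the 3′ ends of tRNAs, with 42.2, and Archease, with 36.2. Of 8 genes for other polymerase III transcripts, 0, 4, 1 and 0 had one, the pooled one being RNaseMRP:RNA with 36.4. Of all protein-coding genes, 4.98% had a summit at a start in replicate 1, 21.0% in replicate 3 and 8.40% in the pooled list. In the same order, the synthetases had 5%, 35% and 10%, the polymerase III machinery 3.85%, 15.4% and 3.85%, and the processing genes 0%, 21.7% and 8.70%. The other polymerase III transcripts had 0%, 50% and 12.5%, against 4.55%, 19.5% and 7.85% of all annotated genes. Those in replicate 3 were RNaseMRP:RNA and the U6 genes snRNA:U6:96Aa, snRNA:U6:96Ab and snRNA:U6:96Ac, the former pair of U6 genes sharing a summit. Their signals were 15.0 to 15.8, at ranks 10067 to 11287, in the lower part of that list. No ribosomal RNA gene was among these transcripts. The lists are short and no enrichment was tested.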

How the data were processed

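The deposited files are peak lists of ChIP-seq on whole adult males, 1 per replicate, 1 pooled and 1 optimal, on dm6 (dm3 lists were not used here). Per the deposited file listing, each replicate list was made from its own alignments and 1 control file. Each line holds the authors' peak signal and the authors' −log10 q-value; the sources used here do not give the aligner, the caller, their settings or the depth. Only nuclear peaks were used. Summits were joined to the dm6 sequence and Ensembl release 115 with Python 3.11.15, numpy 2.4.6, pandas 2.3.3 and scipy 1.17.1. A summit was at a gene within 500 bp of it. Counts were compared with 10000 random placements that kept each summit's chromosome and avoided unknown sequence (two-sided permutation tests, Benjamini-Hochberg over 12 tests of summits and over the 4 lists for genes). The code was tried on simulated lists drawn by the same random placement. Those hold no clustered summits, so the trial does not show how the p-values behave where summits cluster. The 95% Wilson intervals of shares hold counting error alone. Named genes were those in the optimal list, the 20 highest in the pooled list, the 10 highest in both replicates, the highest of an amino acid, and, in the gene lists, optimal-list genes and up to 4 more by signal. Genes named for another reason (copies, neighbours, AP-1 sites, genes absent from the pooled list) were chosen after their values were seen. Of the symbols for tRNA processing, 5 were unmatched. The tRNA genes and the gene lists were chosen with earlier results of these data known.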

Additional observations from a re-analysis of the deposited data

How the results depend on the processing

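The alternatives were distances of 250 and 1000 bp, a q-value limit of 0.05, overlap of the whole peak with the gene, placements that keep nearness to a coding start, a coding start within 1000 bp, clusters counted once, and 1 replicate in place of both. No ratio to the placements turned below 1. For genes with a coding start, the call ended in replicate 1 at 250 bp (7.66) and with the class kept (3.66), and in the pooled list with the class kept (1.89); for genes without one, it ended in replicate 1 at the q-value limit (3.93), where 1 summit was left. With the highest peaks of 1 replicate in place of both, ratios in the pooled list ran from 4.31 to 6.06 for all genes, 6.5 to 8.34 with a coding start, 4.18 to 6.03 without, and 4.28 to 6.78 by gene. In the optimal list they ran from 6.45 to 9.81, 21.6 to 50.3, 3.57 to 3.58, and 9.75 to 12.2 in the same order, and with replicate 3 alone the calls for all genes and for genes with a coding start ended (adjusted p = 0.108 for both in the permutation test). For the pooled list, replicate 1 alone had only 2024 peaks. The cause of these changes was not tested. No paired analysis was possible because both replicates belong to 1 group. Precision is limited by counts of 1 to 3 summits in the optimal list, and of 4 at genes with a coding start in replicate 1 and in the pooled list.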

Other observations

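In the optimal list, 14 of the 165 nuclear summits lay between 10000 and 20000 bp from the nearest tRNA gene, 4.95 times the density over the nuclear genome, and none lay between 500 and 10000 bp. Among summits ranked 1 to 200, the share at tRNA genes was 1.50% in replicate 1, 1.00% in replicate 3 and 1.50% in the pooled list. In replicate 3 it was 0.379% among the 5804 lowest summits. These values were not tested.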
